A study of Rattus norvegicus with 36 samples.

Results

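The mammary glands of F344 rats collected 30 d after N-nitrosomethylurea (NMU) were compared with F344 glands collected 6 h and 1 d after the same carcinogen. The comparison uses 9 of the 36 arrays of the series, 3 per time, chosen by the strain, treatment and time in their titles and not by any measured value. The rats were 55 days old when treated, so glands at 30 d differ from the earlier ones in the age of the rat as well as in the time since NMU, and these cannot be told apart within the NMU glands. F344 rats given the saline vehicle at the same age and collected at the same times (3 arrays per time) give the time difference without the carcinogen. Cop rats given NMU and collected at these times (3 arrays per time) give it in the resistant strain. All glands were whole tissue from rats with no other treatment named in the labels. Nothing used here states the dose and route of NMU, the stage of the oestrous cycle or the hour of collection.

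NMU methylates DNA within hours of injection and is then gone, and F344 rats develop mammary carcinomas after it while Cop rats are largely protected. The young rat gland is a tree of ducts in a fat pad. Each duct has an inner layer of luminal cells, which respond to oestrogen, progesterone and prolactin, and an outer layer of contractile basal (myoepithelial) cells that carry the keratins 5 and 14 and lie on a matrix made with the surrounding fibroblasts. The fat pad makes fatty acids from glucose and stores them as triglyceride, and this work depends on feeding and insulin. The ductal tree goes on branching with the ovarian cycles after puberty.

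Values are the authors' log2 expression values, on which a difference of 1 is a doubling. All differences are the mean at 30 d minus the mean of the 6 h and 1 d means, unless a single earlier time is named, and they come from a linear model of all 36 arrays (limma). A gene was called at a Benjamini-Hochberg adjusted p under 0.05. The labels call the replicates biological without saying that each is a separate animal, so p-values measure the spread between arrays. The basal keratins Krt14 and Krt5 lay between 8.21 and 10.05 on all 9 arrays. In whole tissue, fewer cells of a type and less RNA per cell cannot be told apart. Skeletal muscle transcripts varied between glands: the score of 29 skeletal muscle genes (the mean deviation of its genes from their own means over all arrays, in log2 units) was 1.23, 0.85 and -0.41 at 30 d, against 2.47, 0.34 and 2.15 at 6 h and -2.01, 2.20 and 1.02 at 1 d. These ranges overlap, and the count of probe sets called was 6933 with this score in the model, against 6701 without it.

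At 30 d, 4068 of the 11509 genes tested were called (35.3%), 1354 of them higher (11.8%) and 2714 lower (23.6%). The shares of 11.8% and 23.6% are the background for the list counts against both earlier times given below. The median difference over all genes was -0.07. The balance of directions moves with the scaling: of the 20748 probe sets tested, 2555 were called higher (12.3%) and 4146 lower (20%), 32.3% in all, and quantile normalization gave 3158 higher and 3450 lower. Without 30 d replicate 2 or replicate 1 the total of 6701 probe sets came to 4034 and 4094, and against 6 h and 1 d the totals of 6580 and 4032 came to 4240 and 2370 without replicate 2. The total against 1 d also fell to 2531 without 30 d replicate 1 and to 2622 without 1 d replicate 1. All 3 arrays at 30 d lay above all 6 earlier arrays for 1447 genes (12.6%) and below them for 2281 (19.8%). Against 6 h alone, 3926 genes were called (34.1%), and against 1 d alone 2646 (23%). Both of these comparisons use the same 30 d arrays and cannot be read as independent. Of the genes, 11.2% were higher and 22.9% lower against 6 h, and 6.67% higher and 16.3% lower against 1 d. For the probe sets behind them, quantile normalization moved the split as well: 2410 higher (11.6%) and 4170 lower (20.1%) against 6 h, 31.7% in all, became 2941 and 3324, and 1395 higher (6.72%) and 2637 lower (12.7%) against 1 d, 19.4% in all, became 1851 and 2256.

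Genes of basal epithelium, of the extracellular matrix and of secreted growth and Wnt regulation rose by 30 d. Genes of mitochondrial respiration, of fatty acid synthesis, of triglyceride storage and of ribosome building fell. Interferon-stimulated genes, which were high at 1 d, were lower at 30 d, as were 3 of the 4 neutrophil genes measured, which were high at 6 h. Several chemokines were lower too: Cxcl10, Cxcl11 and Ccl19 had their peak at 1 d, while Ccl2 was high at both earlier times. Genes of mitosis gave no call in either direction against both earlier times together.

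**Figure D1:**
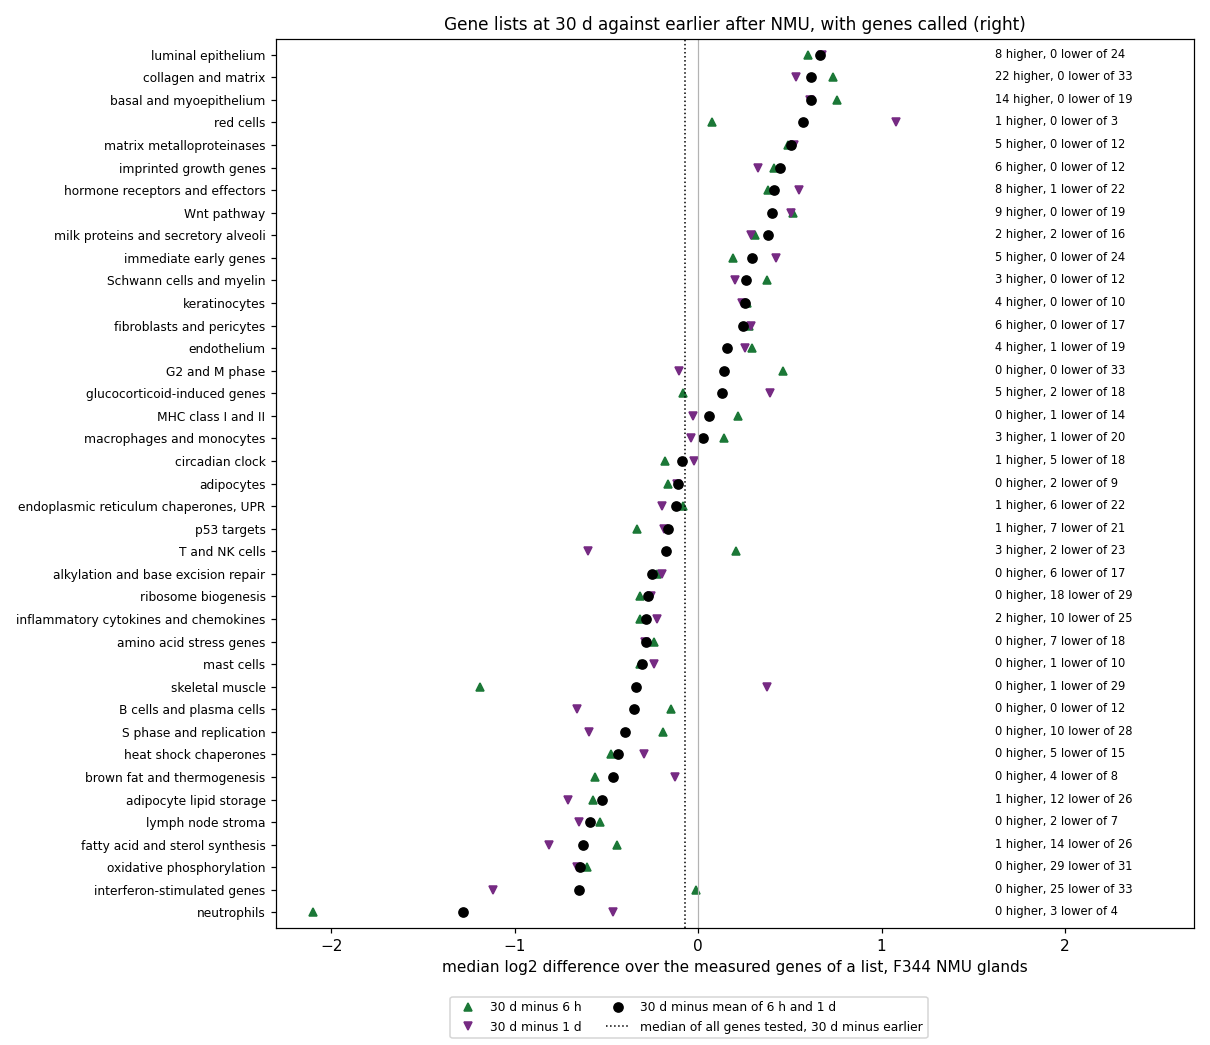
Median log2 difference of each gene list in F344 NMU glands at 30 d, against both earlier times (circles), 6 h alone (upward triangles) and 1 d alone (downward triangles), with the numbers of genes called at the right. The collagen and matrix list and the basal list have medians of 0.62 and 0.61 and the oxidative phosphorylation list -0.65, while interferon-stimulated genes are at -1.12 against 1 d and -0.01 against 6 h.

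The basal epithelium rose as a group. Of its 19 measured marker genes, 14 were called higher and 0 lower at 30 d (median 0.61), beside 11.8% higher over all genes. Krt14, the keratin that defines the basal layer, read 9.97, 10.05 and 10.05 at 30 d, against 8.30, 8.61 and 8.73 at 6 h and 8.47, 8.47 and 8.26 at 1 d. Every 30 d array was above every earlier one, and the 3 at 30 d lay within 0.09 of each other. The difference was 1.55 (SE 0.298, adjusted p = 0.000319). Its pairing partner Krt5 rose by 1.54, Krt17 by 1.48 and Krt15, a keratin of basal cells and of the hair follicle, by 2.0. Krt15 read 9.09, 9.60 and 9.42 at 30 d, against 7.22, 7.28 and 7.77 at 6 h and 7.32, 7.31 and 7.32 at 1 d, again without overlap. The genes of the anchoring complex that ties basal cells to their basement membrane rose with the keratins: the integrin subunit Itgb4 by 1.07 and the laminin chain Lamb3 by 1.03. So did the contractile protein Acta2, smooth muscle actin, which read 9.98, 10.19 and 9.91 at 30 d, against 8.88, 9.09 and 8.76 at 6 h and 8.79, 9.16 and 8.78 at 1 d (difference 1.12, SE 0.146, adjusted p = 1.59e-06). Acta2 is also made by vessel walls and by activated fibroblasts. The basal master regulator Tp63 rose by 1.05. Of the 19 genes, Egfr (0.32), Itga6 (0.38), Sfn (0.53), Cnn1 (0.55) and Oxtr (0.95) did not pass. Per array, the score of the list was 0.40, 0.42 and 0.43 at 30 d, against -0.55, -0.33 and -0.37 at 6 h and -0.45, -0.36 and -0.38 at 1 d. Hair follicles and skin carry these keratins too. Of the 10 keratinocyte genes measured, 4 were called higher: Krt5, Krt14 and Krt15 themselves, and Tgm3, which is not among the basal markers. Tgm3 read between 6.17 and 6.78 at 30 d, against 5.67 to 6.19 at the earlier times, so the arrays overlapped slightly. The epidermal Krt10 (-1.03, adjusted p = 0.391) and Krt1 (0.19, adjusted p = 0.848) and the follicle keratin Krt25 (-1.02, adjusted p = 0.386) did not pass. The part of skin in the basal result was not tested.

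**Figure D2:**
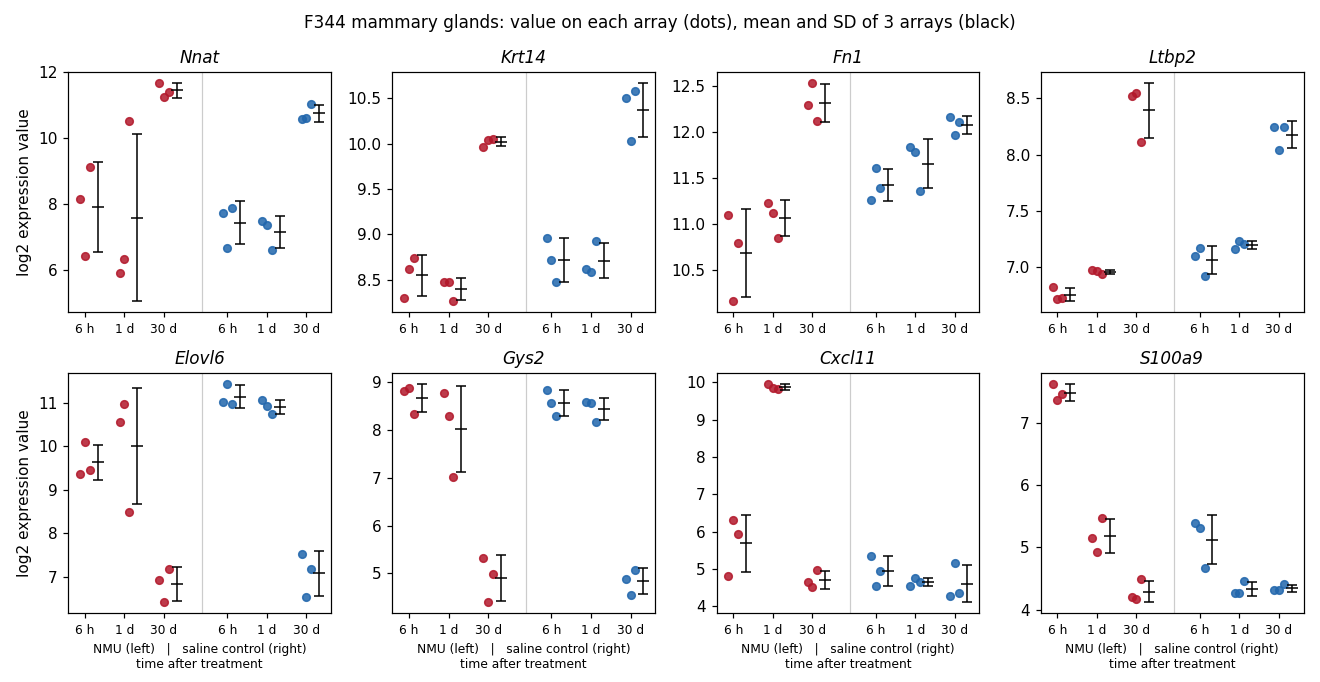
Log2 expression value of 8 genes on each array of F344 glands at 6 h, 1 d and 30 d, after NMU (left, red) and after saline (right, blue), with the mean and SD of 3 arrays in black. Within the NMU glands, Nnat, Krt14, Fn1 and Ltbp2 are highest and Elovl6 and Gys2 lowest at 30 d, while Cxcl11 and S100a9 stand out at 1 d and 6 h.

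Genes of the luminal layer rose in part. Of 24 luminal markers, 8 were called higher and 0 lower (median 0.66), and the count fell to 5, 5 and 4 without F344 NMU 30 d replicate 1, 2 or 3. The stem and progenitor antigen Prom1 read 6.91, 7.25 and 8.43 at 30 d, against 6.59, 6.11 and 6.10 at 6 h and 6.04, 6.46 and 6.22 at 1 d. The value of 8.43 in replicate 3 at 30 d stood above the other 2, though all 3 exceeded the earlier arrays. The difference was 1.28 (SE 0.315, adjusted p = 0.00298), and the adjusted p lay between 0.000382 and 0.0519 over the alternatives, the highest without that replicate. Krt7 rose by 0.94, Krt19 by 1.06 and the protease inhibitor Spint2, which guards epithelial sheets, by 0.72. The general luminal keratins Krt8 (0.66, adjusted p = 0.0872) and Krt18 (0.68, adjusted p = 0.116) did not pass.

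Among hormone receptors and their effectors, 8 of 22 were called higher and 1 lower (median 0.41). The prolactin receptor Prlr, through which the gland is prepared for lactation, read 10.67, 10.72 and 11.10 at 30 d, against 9.62, 9.41 and 9.40 at 6 h and 9.25, 9.23 and 9.49 at 1 d. All 30 d arrays exceeded all earlier arrays, and the mean difference was 1.43 (SE 0.384, adjusted p = 0.00634). The signal transducer Stat5a, which acts below Prlr, rose by 0.61, with adjusted p between 0.00159 and 0.0609 over the alternatives, the highest without 30 d replicate 3. The oestrogen receptor Esr1 passed narrowly (difference 0.59, SE 0.221, adjusted p = 0.0408); its adjusted p ranged between 0.00384 and 0.117 over the alternatives, and the call was lost without 7 of the 9 arrays in turn (each except 6 h replicate 3 and 1 d replicate 3), with quantile normalization and with only the 9 NMU arrays modelled. The progesterone receptor Pgr read 5.06, 4.75 and 7.94 at 30 d, against 5.65, 4.54 and 4.11 at 6 h and 3.77, 4.18 and 4.21 at 1 d. Replicate 3 at 30 d, at 7.94, decided its mean, the groups overlapped, and the gene did not pass (difference 1.51, SE 0.642, adjusted p = 0.0732). Igf1, the local growth factor induced by growth hormone, rose by 0.63, while the growth hormone receptor Ghr fell by 0.79. Igf1 lost its call without 30 d replicate 2, with adjusted p between 0.000558 and 0.072 over the alternatives. The count of higher genes in this list fell to 4 without 30 d replicate 1 and to 5 without 6 h replicate 1 or 1 d replicate 1.

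Milk genes varied widely between glands. Of 16, 2 were called higher and 2 lower (median 0.38). Csn3, which coats casein micelles, read 11.94, 12.75 and 11.73 at 30 d, against 9.19, 11.16 and 10.15 at 6 h and 10.82, 10.37 and 8.81 at 1 d (difference 2.06, SE 0.698, adjusted p = 0.0268). The 30 d arrays lay above the earlier ones, but the call was lost without 6 h replicate 1, 1 d replicate 3, or 30 d replicate 1 or 2, and the adjusted p ranged between 0.0159 and 0.13. Csn2, beta-casein, read 8.24, 11.78 and 6.50 at 30 d, against 6.35, 10.58 and 5.44 at 6 h and 7.72, 8.07 and 5.99 at 1 d. Replicate 2 was the highest of its time in every group here, the groups overlapped, and the gene did not pass (difference 1.48, SE 1.53, adjusted p = 0.474). Olah, the thioesterase that releases the medium-chain fatty acids of milk, rose by 1.30, with adjusted p between 0.000818 and 0.0549 over the alternatives, the highest with only the 9 NMU arrays modelled.

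Matrix genes of the stroma rose. Of 33 collagen and matrix genes, 22 were called higher and 0 lower (median 0.62), 21 higher and 1 lower against 6 h, and 15 higher against 1 d (9 without 30 d replicate 2). Fibronectin, Fn1, a scaffold on which other matrix fibres assemble, read 12.29, 12.53 and 12.11 at 30 d, against 11.10, 10.16 and 10.79 at 6 h and 11.23, 11.12 and 10.85 at 1 d. The lowest 30 d array lay 0.89 above the highest earlier one, and the difference was 1.44 (SE 0.155, adjusted p = 1.09e-07). Elastin, Eln, which gives tissue its recoil, read 8.08, 8.63 and 7.92 at 30 d, against 7.18, 6.15 and 6.59 at 6 h and 7.11, 7.04 and 6.78 at 1 d (difference 1.40, SE 0.177, adjusted p = 1.01e-06). Other elastic fibre genes rose as well: Fbln2 by 0.95, Mfap4 by 1.85, Fbn1 by 0.87 and Ltbp2, which binds fibrillin, by 1.54 (SE 0.133, adjusted p = 2.83e-09). Ltbp2 read 8.52, 8.55 and 8.12 at 30 d, against 6.82, 6.71 and 6.72 at 6 h and 6.97, 6.97 and 6.94 at 1 d, with all 6 earlier arrays between 6.71 and 6.97. The main fibrillar collagen gene Col1a1 rose by 0.88 and the basement membrane chains Col4a1 and Col4a2 by 0.66 and 1.03. The proteoglycan Bgn, which binds collagen fibrils, rose by 0.83. Enzymes that modify collagen inside the cell were not called (Plod2 -0.36, P4ha1 -0.09, P4ha2 -0.01), nor were the proteoglycan Dcn (0.04) and the protease inhibitor Timp1, at 0.00.

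Matrix turnover genes rose beside the matrix itself. Of 12 matrix metalloproteinase genes and inhibitors, 5 were called higher and 0 lower (median 0.51). Mmp14, the membrane protease that activates the Mmp2 proenzyme, read 11.78, 12.08 and 11.65 at 30 d, against 10.70, 10.33 and 11.01 at 6 h and 10.71, 11.10 and 10.87 at 1 d. No 30 d array overlapped the earlier ones, and the difference was 1.05 (SE 0.15, adjusted p = 6.06e-06). Mmp2 itself rose by 0.88. The inhibitor Timp3 rose by 0.70. Fibroblast and pericyte markers gave 6 higher of 17 (median 0.24), with Thy1 up by 1.43 and Dpt by 0.48, while Pdgfra (0.05), Dcn and Fap (0.23) were not called.

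Secreted regulators of Wnt signalling rose: 9 of 19 Wnt genes were called higher and 0 lower (median 0.40). They include the ligands Wnt5b (0.88) and Wnt2 (0.78), the receptor Fzd1 (0.66) and 5 secreted inhibitors or modulators, Sfrp1 (0.92), Sfrp2 (1.05), Sfrp4 (1.02), Dkk3 (0.82) and Wif1 (0.82). Sfrp4 read 8.73, 9.52 and 8.43 at 30 d, against 7.5, 7.33 and 8.16 at 6 h and 8.09, 7.84 and 8.35 at 1 d, and 30 d replicate 3 lay only just above 1 d replicate 3. The pathway's feedback targets Axin2 (0.40, adjusted p = 0.174) and Lef1 (-0.36, adjusted p = 0.478) did not pass.

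The steepest rise of all, by the naming rule, was that of Nnat, an imprinted gene of a small membrane proteolipid found in brain and in fat tissue. It read 11.67, 11.25 and 11.40 at 30 d, against 8.17, 6.43 and 9.12 at 6 h and 5.92, 6.34 and 10.51 at 1 d. Replicate 3 at 1 d, at 10.51, came close to the 30 d arrays, while the other 5 earlier arrays lay at or below 9.12. The difference was 3.69 (SE 0.657, adjusted p = 0.000163), and the adjusted p was 0.0513 when only the 9 NMU arrays were modelled (between 5.39e-08 and 0.0513 over all alternatives). Mest, an imprinted gene tied to the growth of fat tissue, rose by 1.49 (adjusted p between 0.000518 and 0.0533 over the alternatives, lost only with the 9 NMU arrays alone), and Igf2r, the receptor that clears the growth factor IGF2, by 0.77. In all, 6 of 12 imprinted growth genes were called higher and 0 lower (median 0.45); the fetal growth genes Igf2 (0.62) and H19 (-0.84) were not called.

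The other large rises were single genes. Fgg, a fibrinogen chain best known from liver, read 9.99, 9.72 and 9.23 at 30 d, against 7.58, 7.81 and 7.56 at 6 h and 5.94, 7.20 and 6.83 at 1 d. The groups did not overlap, and the gene rose by 2.5 (SE 0.768, adjusted p = 0.0155), with adjusted p between 0.000375 and 0.0695 over the alternatives, lost without 30 d replicate 1 or 2. The chloride channel regulator Clca1 rose by 2.5 (SE 0.749, adjusted p = 0.0135), lost without 30 d replicate 2 (between 0.00797 and 0.112 over the alternatives). Lbp, which presents bacterial lipopolysaccharide to the innate immune system, rose by 1.59, the cytokine Il17b by 1.59 and Crim1, a cell surface antagonist of bone morphogenetic proteins, by 1.66. Both Areg and Pdk4 were picked out after their values were seen, and in both the 30 d arrays overlapped the earlier ones. They are Areg, the growth factor that carries the oestrogen signal from luminal cells to the stroma (2.31, SE 0.776, adjusted p = 0.0256), and Pdk4, the kinase that inhibits pyruvate dehydrogenase in fasting (2.20, SE 0.679, adjusted p = 0.0161).

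Mitochondrial respiration fell almost without exception. Of 31 nuclear genes of oxidative phosphorylation, 29 were called lower and 0 higher at 30 d (median -0.65), beside 23.6% lower over all genes. The counts were 27 lower against 6 h and 29 lower against 1 d. All 4 nuclear subunits of succinate dehydrogenase fell (Sdha -0.56, Sdhb -0.83, Sdhc -0.65 and Sdhd -0.82). Ndufs1, the largest core subunit of complex I, read 9.22, 9.0 and 9.31 at 30 d, against 10.37, 10.27 and 10.20 at 6 h and 10.43, 10.32 and 10.19 at 1 d. The highest 30 d array lay 0.87 below the lowest earlier one (difference -1.12, SE 0.104, adjusted p = 1.02e-08). Ndufb3, an accessory subunit of the same complex, read 10.96, 10.76 and 11.10 at 30 d, against 11.80, 11.81 and 11.72 at 6 h and 11.80, 11.69 and 11.68 at 1 d (difference -0.81, SE 0.0772, adjusted p = 1.21e-08). Atp5pb, in the stalk of the ATP synthase, read 11.45, 11.42 and 11.53 at 30 d, against 12.29, 12.39 and 12.23 at 6 h and 12.27, 12.20 and 12.12 at 1 d, with a spread within each time of at most 0.16 and a difference of -0.79 (SE 0.0657, adjusted p = 1.84e-09). Cytochrome c1, Cyc1, fell by 1.01. The 2 genes not called were Cox6a1 (-0.19) and Cox5a (0.55). The list score was -0.28, -0.32 and -0.22 at 30 d, against 0.29, 0.35 and 0.26 at 6 h and 0.40, 0.41 and 0.25 at 1 d. Muscle is rich in these transcripts. With the muscle score in the model, 29 genes were lower and the median was -0.64.

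**Figure D3:**
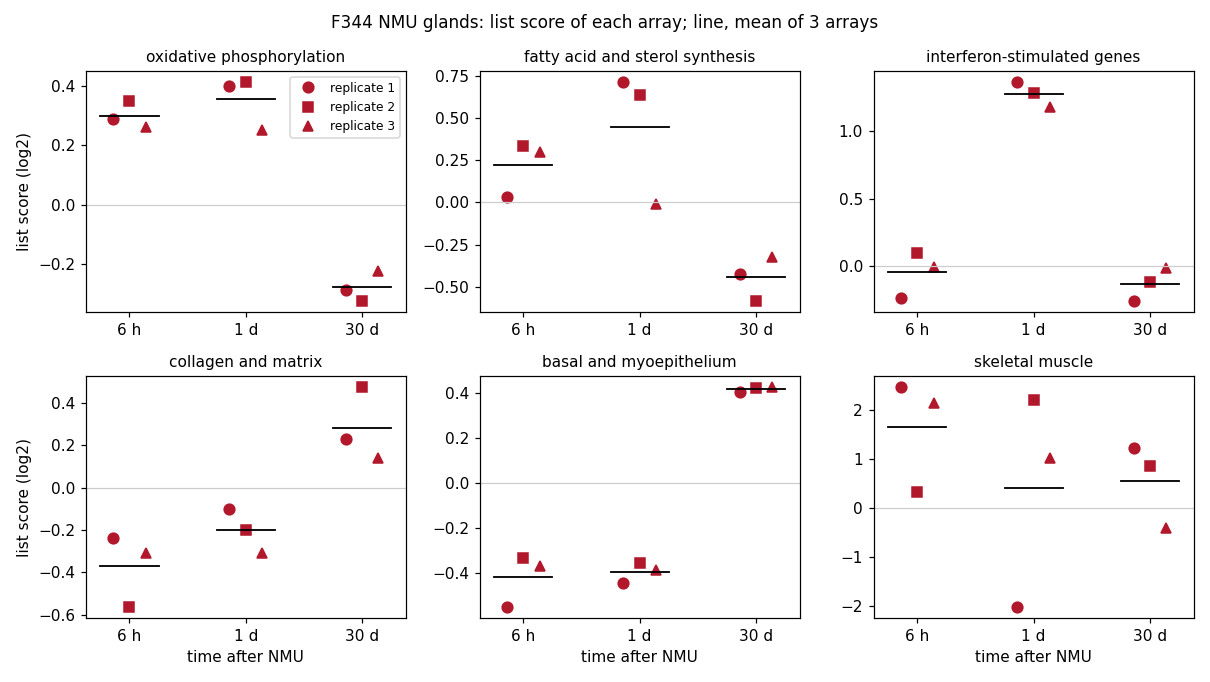
List score of each F344 NMU array (mean deviation of the list's genes from their means over all arrays, log2) at 6 h, 1 d and 30 d, with the replicate shown by symbol and a line at the mean of 3. The 30 d arrays lie apart from the 6 earlier ones for oxidative phosphorylation, fatty acid and sterol synthesis, collagen and matrix, and basal genes, while the interferon score is above 1 at 1 d only and the muscle score scatters between -2.01 and 2.47.

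The transcription factor NRF1 is known to bind GC-rich sites near the start of many respiratory genes. The windows below, from RefSeq (build GRCr8), show where its consensus letters stand in 3 of the genes that fell, each on the strand of its gene, with the motif in capitals. The window searched ran from 250 bases before to 50 after each gene's start and the letters were GCGCA, any 1 base and GCGC, on either strand. Matches in 1 window were counted once. They were found in 5 of the 28 windows available for the list (17.9%), and in 1292 of 27457 windows of all genes (4.71%). The 5 genes were Atp5f1c, Atp5po, Ndufa5, Sdha and Uqcrc1. Atp5po lies at chr11:44657493-44657582 on the minus strand, Ndufa5 at chr4:53971236-53971307 on the minus strand and Sdha, with 2 matches, at chr1:30764424-30764552 on the plus strand.
Atp5po: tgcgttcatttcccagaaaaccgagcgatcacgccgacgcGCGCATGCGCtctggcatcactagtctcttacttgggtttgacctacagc
Ndufa5: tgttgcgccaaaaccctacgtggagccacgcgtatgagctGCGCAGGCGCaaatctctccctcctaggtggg
Sdha: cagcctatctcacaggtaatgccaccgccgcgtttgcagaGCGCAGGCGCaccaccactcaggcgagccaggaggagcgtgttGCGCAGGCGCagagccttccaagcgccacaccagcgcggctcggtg
The median difference was -0.56 for the 5 genes with a match and -0.66 for the other 23 with a window. A match describes these letters only.

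Fatty acid synthesis from glucose fell. Of 26 genes for making fatty acids and sterols, 14 were called lower and 1 higher (median -0.63). The whole chain from citrate was lower: the citrate-splitting enzyme Acly read 10.31, 10.29 and 10.75 at 30 d, against 12.20, 12.57 and 12.30 at 6 h and 12.62, 12.64 and 11.15 at 1 d, with no overlap and a difference of -1.80 (SE 0.218, adjusted p = 8.52e-07). Acaca, the rate-limiting carboxylase, read 9.67, 9.29 and 10.20 at 30 d, against 11.78, 11.66 and 11.33 at 6 h and 11.89, 11.77 and 11.32 at 1 d (difference -1.90, SE 0.177, adjusted p = 1.02e-08), and the synthase Fasn fell by 1.41. Elovl6, which lengthens palmitate, read 6.93, 6.42 and 7.19 at 30 d, against 9.36, 10.10 and 9.45 at 6 h and 10.56, 10.98 and 8.48 at 1 d. Replicate 3 at 1 d, at 8.48, was the lowest earlier array, and still above all 30 d arrays (difference -2.98, SE 0.346, adjusted p = 5.51e-07). Me1, which supplies the reducing power, fell by 2.28. Of the sterol genes, Idi1 (-1.46), Fdps (-0.97) and Cyp51 (-0.80) fell, while the rate regulators Sqle (-0.48, adjusted p = 0.0772) and Insig1 (-0.57, adjusted p = 0.0557) did not pass. Insig1 depends on which earlier time is used: its difference was -0.01 against 6 h and -1.14 against 1 d (adjusted p = 0.987 and 0.003). The regulator Srebf2 was the 1 gene called higher (0.49).

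Triglyceride storage genes fell in part. Of 26 adipocyte lipid storage genes, 12 were called lower and 1 higher, Angptl4 (median -0.52). Gpam, the first enzyme of triglyceride assembly, read 6.42, 5.25 and 6.70 at 30 d, against 8.76, 9.51 and 9.35 at 6 h and 9.70, 9.63 and 7.94 at 1 d (difference -3.03, SE 0.343, adjusted p = 3.65e-07). Pnpla3, a lipase of lipid droplets that rises with feeding, fell by 2.73, the acyltransferase Agpat2 by 1.91 and the insulin-responsive glucose carrier Slc2a4 by 1.63. Genes of glycogen were not listed as a group, and a pair of them stood among the single genes that fell most. Gys2, the glycogen synthase known from liver, was second among all falls: it read 5.33, 4.39 and 4.98 at 30 d, against 8.81, 8.88 and 8.34 at 6 h and 8.77, 8.29 and 7.02 at 1 d. All 30 d arrays lay at or below 5.33 and all earlier ones at or above 7.02, a difference of -3.45 (SE 0.257, adjusted p = 3.91e-10). Ppp1r3b, which brings a phosphatase to glycogen synthase, fell by 2.45 (SE 0.446, adjusted p = 0.000183), and Angptl8, an insulin-induced inhibitor of lipoprotein lipase, fell by 2.53 (SE 0.486, adjusted p = 0.000348). The last 2 missed the threshold when only the 9 NMU arrays were modelled (adjusted p = 0.0617 and 0.0533, over ranges between 1.83e-07 and 0.0617 and between 9.81e-06 and 0.0533). The adipocyte products Adipoq (0.08), Lep (0.10), Plin1 (0.15) and Cfd (-0.08) were not called, and of the 9 adipocyte markers measured Slc2a4 and Cidec fell and none rose.

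The largest fall belonged to C5h8orf88, which has no role that could be named here. It read 4.45, 4.67 and 5.43 at 30 d, against 9.07, 9.62 and 9.13 at 6 h and 8.95, 8.47 and 8.16 at 1 d, with a difference of -4.05 (SE 0.322, adjusted p = 1.35e-09). Among the other large falls, Slc25a35, a mitochondrial carrier, fell by 2.26, and the carbonyl reductase Cbr1 by 2.25. Tchh, a structural protein of the hair follicle's inner sheath, read 3.77, 4.59 and 4.70 at 30 d, against 6.77, 6.10 and 7.29 at 6 h and 5.29, 6.60 and 9.96 at 1 d; its difference of -2.65 (SE 0.955, adjusted p = 0.0364) was lost without 6 of the 9 arrays in turn (6 h replicate 1 or 3, 1 d replicate 3, or any 30 d array), with adjusted p between 0.0149 and 0.137.

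Genes of ribosome building and of serine synthesis fell. Of 29 ribosome biogenesis genes 18 were called lower and 0 higher (median -0.27), and 10 without 30 d replicate 1 or without replicate 2. The nucleolar factors Wdr12, Nhp2 and Nop16 fell (differences -0.60, -0.55 and -0.51). The 3 enzymes that make serine from a glycolytic intermediate fell together: Psat1 read 8.83, 8.64 and 9.03 at 30 d, against 10.46, 10.84 and 10.51 at 6 h and 10.90, 10.83 and 10.98 at 1 d (difference -1.93, SE 0.173, adjusted p = 5.83e-09), Phgdh fell by 1.19 and Psph by 1.57. With the asparagine synthetase Asns (-0.82) they belong to a list of 18 amino acid stress genes, of which 7 were called lower and 0 higher, and 4 lower without 30 d replicate 1. The mitochondrial chaperone pair Hspd1 (-0.79) and Hspe1 (-0.68) led the heat shock list, with 5 of 15 lower and 0 higher, beside 23.6% lower over all genes. The endoplasmic reticulum list was close to the background: of 22 chaperone and unfolded protein response genes 6 were lower, such as Dnajb11 (-0.49), and 1 higher (median -0.12), beside 23.6% lower and a median of -0.07 over all genes, and 3 were lower and 1 higher without 30 d replicate 2.

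Interferon-stimulated genes were low at 30 d. Of 33 interferon-stimulated genes, 25 were called lower and 0 higher at 30 d (median -0.65), or 14 without 30 d replicate 1. The fall rests on the 1 d arrays: against 1 d alone 32 of 33 were lower (median -1.12), and against 6 h alone 3 were lower and 3 higher (median -0.01). Cxcl11, a chemokine that draws T cells, read 4.65, 4.50 and 4.98 at 30 d, against 4.82, 6.31 and 5.92 at 6 h and 9.96, 9.84 and 9.82 at 1 d. The 3 arrays at 1 d stood alone, and the 30 d arrays overlapped those at 6 h. The difference was -5.16 against 1 d (adjusted p = 5.04e-13) and -0.97 against 6 h (adjusted p = 0.011). Its relative Cxcl10 read 6.37, 7.0 and 6.33 at 30 d, against 6.68, 7.77 and 7.51 at 6 h and 9.90, 9.83 and 9.62 at 1 d, with a difference of -3.22 against 1 d (adjusted p = 2.26e-06). Ifit3, which restrains viral RNA, read 5.32, 5.43 and 6.02 at 30 d, against 6.11, 6.98 and 6.77 at 6 h and 8.33, 7.82 and 8.15 at 1 d and differed from both times, by -2.51 and -1.03. Isg15, a ubiquitin-like protein, differed by -2.33 against 1 d and -0.31 against 6 h (adjusted p = 0.323). Per array, the list score was -0.26, -0.12 and -0.02 at 30 d, against -0.23, 0.10 and -0.01 at 6 h and 1.37, 1.28 and 1.18 at 1 d.

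Interferon-stimulated genes are known to carry a response element read by STAT and IRF factors. Its core letters, GAAA, any 2 bases and GAAA, were searched on both strands in the same windows of RefSeq GRCr8. They stood in 17 of the 26 windows available for the list (65.4%), and in 1034 of 27457 windows of all genes (3.77%). Of the 19 called genes with a window, 12 held a match. Genes that were not called held matches too, such as Isg20 (-0.34), Parp14 (-0.32), Ifi44 (-0.19) and Ifi27 (0.07). As above, a match describes these letters only. Cxcl10, Ifit3, Gbp2 and Oas1b are shown because their level at 1 d fell away by 30 d, each on the strand of its gene with the match in capitals. Cxcl10 lies at chr14:15988816-15988872 (plus strand), Ifit3 at chr1:241527242-241527325 (plus), Gbp2 at chr2:234005656-234005726 (plus) and Oas1b at chr12:41395856-41395951 (minus), where 2 matches overlap.
Cxcl10: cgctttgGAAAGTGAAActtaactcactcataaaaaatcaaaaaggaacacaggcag
Ifit3: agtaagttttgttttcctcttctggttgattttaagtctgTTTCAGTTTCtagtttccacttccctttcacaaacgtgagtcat
Gbp2: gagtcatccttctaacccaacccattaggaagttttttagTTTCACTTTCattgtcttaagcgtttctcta
Oas1b: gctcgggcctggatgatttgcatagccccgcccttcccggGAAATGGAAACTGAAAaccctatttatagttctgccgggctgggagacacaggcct
Gbp2, a guanylate-binding protein of antimicrobial defence, read 8.65, 8.81 and 8.72 at 30 d, against 8.61, 8.87 and 9.04 at 6 h and 10.39, 10.16 and 10.11 at 1 d, so the 1 d arrays stood above all others. Its difference against 1 d was -1.49 (adjusted p = 9.8e-08) and that of the oligoadenylate synthetase Oas1b -1.44 (adjusted p = 2.43e-07).

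Inflammatory genes were lower too. Of 25 cytokines, chemokines and adhesion molecules, 10 were called lower and 2 higher (median -0.28). The monocyte attractant Ccl2 read 7.14, 7.72 and 6.42 at 30 d, against 7.94, 9.51 and 10.09 at 6 h and 9.35, 9.24 and 9.33 at 1 d. All 30 d arrays were below all earlier ones, and the mean difference was -2.15 (SE 0.414, adjusted p = 0.000335). Ccl7 fell by 2.0. Ccl19, which guides T cells and dendritic cells in lymphoid tissue, read 7.61, 7.13 and 8.37 at 30 d, against 8.68, 9.07 and 8.94 at 6 h and 11.09, 11.19 and 10.89 at 1 d, with its peak at 1 d (difference -3.36 against 1 d, adjusted p = 0.000197, and -1.20 against 6 h, adjusted p = 0.117). The adhesion molecule Sele of activated endothelium differed by -1.76 against 6 h (adjusted p = 6.15e-06) and by -0.55 against 1 d (adjusted p = 0.118). Neutrophil genes followed the 6 h arrays in part. Of 14 markers 4 were measured: 3 were lower and 0 higher against both times and against 6 h alone, and 0 were called against 1 d alone. The highest difference in the list was 0.36. At 30 d S100a9 and S100a8 lay below the array medians, which were between 5.66 and 5.76. S100a9 read 4.21, 4.17 and 4.49 at 30 d, against 7.62, 7.37 and 7.46 at 6 h and 5.15, 4.93 and 5.47 at 1 d, which is -3.20 against 6 h (adjusted p = 2.99e-07) and -0.89 against 1 d (adjusted p = 0.0722). Its partner S100a8 differed by -2.48 and -0.07 (adjusted p = 1.09e-07 and 0.867). The cytotoxic granule gene Gzmb was highest at 1 d. It read 5.08, 5.05 and 5.7 at 30 d, against 4.93, 5.38 and 4.91 at 6 h and 7.27, 7.17 and 7.33 at 1 d, a difference of -1.98 against 1 d (adjusted p = 1.46e-07). Of 23 T and NK cell genes, 3 were higher and 2 lower at 30 d against both times together (median -0.17), beside 11.8% higher and 23.6% lower over all genes. None of 12 B cell genes was called, with a median of -0.35. At an unadjusted p under 0.05 it was also 0.

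Some p53 targets and repair genes fell, though as lists they stood little apart from all genes. Of 21 p53 targets, 7 were called lower and 1 higher (Perp, 0.91), with a median of -0.16, beside 23.6% lower and a median of -0.07 over all genes. The cell cycle inhibitor Cdkn1a read 7.67, 8.11 and 7.89 at 30 d, against 8.56, 9.09 and 10.17 at 6 h and 8.50, 8.80 and 8.43 at 1 d. The 30 d arrays lay below all earlier ones, with a mean difference of -1.03 (SE 0.225, adjusted p = 0.000937). The nuclease Aen fell by 1.27, the death receptor Fas by 0.68 and Ccng1 by 0.66. Of 17 repair genes for alkylated and damaged bases, 6 were lower and 0 higher (median -0.25), and 2 without 30 d replicate 1. Alkbh3, which removes methyl groups from DNA, read 8.26, 8.46 and 8.22 at 30 d, against 8.75, 8.63 and 8.88 at 6 h and 8.96, 9.11 and 8.84 at 1 d (difference -0.54, SE 0.0994, adjusted p = 0.00014). Mgmt, the methyltransferase that repairs the main mutagenic lesion of NMU, fell by 0.41 (adjusted p = 0.0117), picked out after its value was seen.

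Cell division did not follow one course. Against both earlier times, 0 of 33 genes of G2 and M phase were called in either direction by limma (median 0.14), and 0 at an unadjusted p under 0.05. Against 6 h alone 2 were higher and 0 lower (median 0.46), beside 11.2% higher over all genes. Against 1 d alone 0 were called (median -0.10). The list scores of -0.54, 0.01 and -0.38 at 30 d lay above those at 6 h (-0.87, -0.68 and -0.76). At 1 d they were 0.04, -0.21 and -0.38. Mki67, the proliferation antigen, read 5.04, 6.52 and 5.62 at 30 d, against 4.52, 4.95 and 4.94 at 6 h and 6.31, 5.47 and 5.44 at 1 d. The groups overlapped, with replicate 2 at 30 d the highest of the 9, and the gene did not pass (difference 0.45, SE 0.411, adjusted p = 0.409); nor did the mitotic cyclin Ccnb1 (0.17, SE 0.322, adjusted p = 0.7). Genes of S phase and replication differed: 10 of 28 were called lower and 0 higher (median -0.40), or 2 without 30 d replicate 1 and 6 without replicate 2. Tyms, which makes thymidylate, read 4.50, 4.99 and 4.34 at 30 d, against 5.93, 6.75 and 6.15 at 6 h and 6.21, 5.77 and 5.50 at 1 d (difference -1.44, SE 0.227, adjusted p = 2.26e-05). Rpa2, which covers single-stranded DNA, fell by 0.73.

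The clock list was close to the background. Of its 18 genes, 5 were called lower and 1 higher at 30 d (median -0.09), beside 23.6% lower and a median of -0.07 over all genes. Cry1, a repressor in the clock, read 5.72, 5.45 and 6.11 at 30 d, against 7.47, 7.80 and 7.44 at 6 h and 6.54, 6.48 and 6.46 at 1 d. Every 30 d array lay below every earlier one, and the 6 h arrays were the highest: the difference was -1.81 against 6 h and -0.73 against 1 d (adjusted p = 1.36e-07 and 0.00699). Usp2, a clock-driven protease, differed by -2.41 and -0.49 (adjusted p = 1.19e-06 and 0.249). The part of the hour of collection in these values was not tested.

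Endothelial genes went both ways, with 4 of 19 higher and 1 lower: Vwf, the clotting factor carrier of vessel walls, read 7.99, 8.10 and 8.25 at 30 d, against 7.28, 6.67 and 6.81 at 6 h and 7.25, 7.23 and 7.33 at 1 d (difference 1.02, SE 0.147, adjusted p = 6.15e-06), and the growth factor receptor Kdr fell by 0.80. The higher count fell to 2 without 30 d replicate 1 or 2. Of 20 macrophage genes 3 were higher and 1 lower. Over all genes 11.8% were higher and 23.6% lower, the background for each count in this paragraph, and the higher macrophage count was close to it. Trem2, a lipid receptor of tissue macrophages, read 6.88, 7.02 and 6.57 at 30 d, against 5.58, 5.49 and 6.00 at 6 h and 6.19, 6.21 and 6.23 at 1 d (difference 0.87, SE 0.151, adjusted p = 7.2e-05), and the count was 1 higher and 0 lower without 30 d replicate 2. Immediate early genes gave 5 of 24 higher and 0 lower, between 1 and 3 without any of 5 arrays in turn (6 h replicate 1 or 2, 1 d replicate 2, 30 d replicate 1 or 2). Jund rose by 1.43 and held throughout. The skeletal muscle list gave 1 of 29 lower (median -0.34).

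The other lists gave few calls, to be read beside 11.8% higher and 23.6% lower over all genes. Of 18 glucocorticoid-induced genes 5 were higher and 2 lower, with 2 higher and 1 lower without 30 d replicate 1 and 3 higher and 1 lower without replicate 2. Of 12 Schwann cell genes 3 were higher and 0 lower, and of 3 red cell genes 1 was higher. Of 14 genes of the major histocompatibility complex 1 was lower, of 10 mast cell genes 1, and of 7 lymph node stroma genes 2. Of 8 genes of brown fat and heat production 4 were lower, among them Cpt1b (-1.97), which admits fatty acids to mitochondria in muscle and brown fat, and 2 without 6 h replicate 1 or any of the 30 d arrays.

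In saline glands of F344 the same time difference called 3657 genes (31.8%), 16.4% of all genes higher and 15.4% lower, with a median of 0.05 over all genes. The 2 treatments share no arrays. Oxidative phosphorylation genes fell in 29 of 31 after NMU (median -0.65) and in 28 of 31 after saline (median -0.48). Fatty acid and sterol genes fell in 14 of 26 after NMU (median -0.63) and in 20 of 26 after saline (median -1.01). Basal genes rose in 14 of 19 after NMU (median 0.61) and in 12 of 19 after saline (median 0.60). Krt14 read 9.97, 10.05 and 10.05 in NMU glands at 30 d, against 10.50, 10.04 and 10.59 in saline glands, and its time difference was 1.55 after NMU and 1.66 after saline (difference between them -0.11 (SE 0.421, adjusted p = 0.894)). Gys2 differed by -3.45 after NMU and -3.67 after saline, and Nnat by 3.69 and 3.45; neither difference between the treatments passed (adjusted p = 0.758 and 0.899).

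Other lists gave unlike counts after NMU and after saline. Luminal genes rose in 8 of 24 after NMU (median 0.66) and in 21 of 24 after saline (median 1.18). Milk genes rose in 2 and fell in 2 of 16 after NMU, and rose in 12 and fell in 2 after saline (median 1.58). Ribosome biogenesis genes fell in 18 of 29 after NMU (median -0.27), while after saline 0 fell and 6 rose (median 0.15).

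The test of the difference itself, time difference after NMU minus time difference after saline, called 602 of 11509 genes (5.23%), 110 higher (0.956%) and 492 lower (4.27%), with a median of -0.10 over all genes. Of the 831 called probe sets behind them (4.01%) 179 were higher (0.863%) and 652 lower (3.14%), and quantile normalization gave 327 and 516. The 831 probe sets came to 210 without NMU 30 d replicate 1, 329 without replicate 2, 1254 without replicate 3, 483 without NMU 6 h replicate 2, 287 without control 30 d replicate 1, 498 without control 30 d replicate 3, 529 without control 1 d replicate 2 and 530 without control 6 h replicate 3. Of the oxidative phosphorylation genes and of the basal genes 0 were called by limma, with 1 and 4 at an unadjusted p under 0.05. The difference passed for 1 of 24 luminal genes, which was lower (median -0.54), and for between 1 and 3, all lower, with one array left out in turn. It passed for 4 of 16 milk genes, all lower (median -0.99): 2 without NMU 6 h replicate 2 or control 6 h replicate 3, 1 without NMU 30 d replicate 1 or 2 or control 30 d replicate 3, and 0 without control 30 d replicate 1. Of the ribosome biogenesis genes 10 of 29 were lower (median -0.46): 16 without NMU 30 d replicate 3, 4 without NMU 30 d replicate 1 or 2, 5 without control 6 h replicate 3, and 6 without NMU 6 h replicate 2, NMU 1 d replicate 1, control 1 d replicate 1 or 2 or control 30 d replicate 1. Of 26 fatty acid and sterol genes 3 were higher after NMU (median 0.32), or 1 without NMU 30 d replicate 1. With the muscle score in the model 0 luminal, 0 milk, 1 ribosome biogenesis and 0 fatty acid and sterol genes were called. The time difference of this score was itself unlike after NMU and after saline. A fit with it therefore cannot separate muscle content from treatment and time.

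Genes of division differed: 16 of 33 G2 and M phase genes were lower and 0 higher (median -1.43), and 18 of 28 S phase genes were lower (median -0.99), or 8 without NMU 30 d replicate 1, 10 without control 30 d replicate 1 and 0 with the muscle score in the model. At 30 d against both earlier times together, 0 of the 33 mitotic genes were called higher after NMU, against 31 after saline (median 1.71). Mki67 averaged 5.73 ± 0.744 in NMU glands at 30 d and 7.66 ± 1.41 in saline glands (SD, n = 3 each). The G2 and M phase scores at 30 d were -0.54, 0.01 and -0.38 in NMU glands, against 1.96, -0.14 and 1.45 in saline glands, of which replicates 1 and 3 were high. The skeletal muscle scores of the same arrays were 1.23, 0.85 and -0.41 in NMU glands, against -3.32, -0.53 and -2.58 in saline glands, and earlier saline glands lay between 1.51 and 2.55. Among the saline glands at 30 d, the 2 with the lowest muscle scores had the highest mitotic scores. These are only 3 arrays, and a link between the 2 scores was not tested. The count of 16 mitotic genes was 2 without NMU 30 d replicate 1, 3 without control 30 d replicate 1 or 3 and 30 without control 30 d replicate 2. Without any other array in turn it lay between 7 and 13. With the muscle score in the model, or without both control replicates 1 and 3, it was 0.

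Single genes differed between the treatments by more. The phosphate carrier Slc34a2 of secretory epithelium averaged 6.24 ± 0.389 in NMU glands at 30 d and 9.56 ± 1.46 in saline glands, and the difference of its time differences was -3.14 (SE 0.669, adjusted p = 0.00924). The call was lost without control 30 d replicate 1, without control replicates 1 and 3, and with the muscle score in the model (adjusted p between 0.000299 and 0.246 over the alternatives). The tight junction gene Cldn7 differed by -2.67 and held whichever array was left out, but not with the muscle score in the model or without both control replicates 1 and 3. The giant muscle protein Ttn differed by 5.08, with adjusted p between 0.0214 and 0.287, and lost its call without 12 of the 18 F344 arrays of the comparison in turn (all but NMU 6 h replicates 1 and 3, NMU 1 d replicate 2, NMU 30 d replicate 3, control 6 h replicate 1 and control 30 d replicate 2). Cxcl11 differed by -2.87 (SE 0.349, adjusted p = 9.77e-05) and was called under every alternative. At 1 d it read 9.96, 9.84 and 9.82 after NMU, against 4.53, 4.76 and 4.66 after saline. Interferon-stimulated genes were lower in 13 of 33 (median -0.69), but in 2 without NMU 30 d replicate 1 and in 1 with the muscle score in the model. The count lay between 6 and 8 without NMU 6 h replicate 2, NMU 1 d replicate 1 or 2, NMU 30 d replicate 2, control 1 d replicate 2 or control 30 d replicate 2. Collagen and matrix genes were higher after NMU in 12 of 33 (median 0.57): Col1a1 differed by 0.88 after NMU and -0.20 after saline (1.09, SE 0.219, adjusted p = 0.00601), and Fn1 by 1.44 and 0.53 (0.90, SE 0.219, adjusted p = 0.0187). This count was 4 without NMU 30 d replicate 2 and 7 without replicate 1, and 0 with the muscle score in the model (median 0.44) or without control replicates 1 and 3 (median 0.70). Sfrp4 was 1.76 higher after NMU, whichever array was left out, and lost its call with the muscle score in the model.

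**Figure D4:**
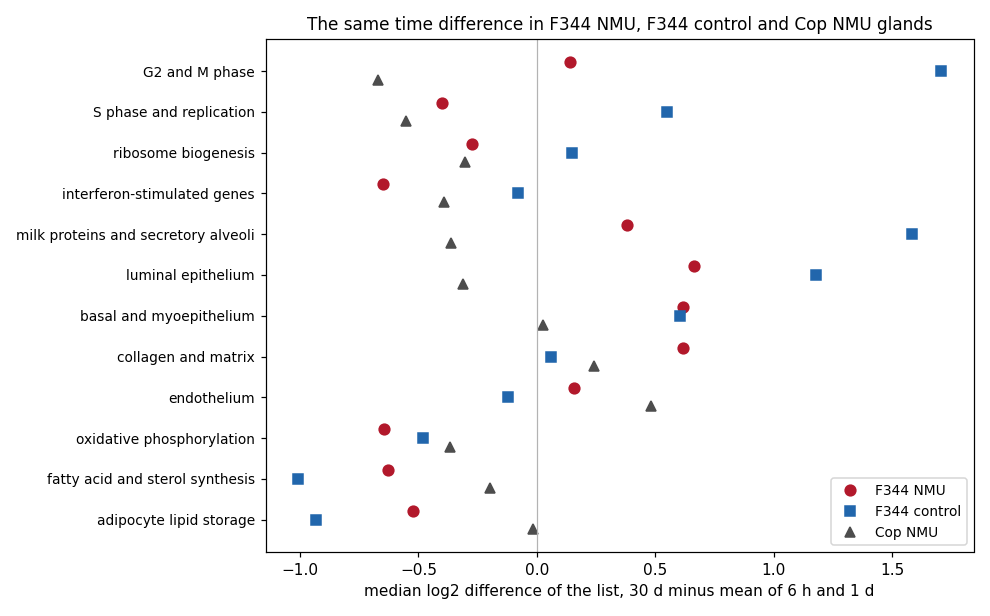
Median log2 difference of 12 gene lists, 30 d minus the mean of 6 h and 1 d, in F344 NMU (circles), F344 control (squares) and Cop NMU glands (triangles). Oxidative phosphorylation is below 0 in all 3, basal genes have medians of 0.61, 0.60 and 0.03, and G2 and M phase genes stand at 1.71 in F344 control glands.

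In Cop glands after NMU, 3742 genes were called for the same time difference (32.5%), 10.2% of all genes higher and 22.3% lower, with a median of -0.09 over all genes. The strain difference of these time differences (F344 minus Cop) called 214 genes (1.86%), 88 higher (0.765%) and 126 lower (1.09%). Quantile normalization gave 230 higher and 247 lower probe sets, against 138 (0.665%) and 193 (0.93%) as deposited, 1.6% in all. The total of 331 came to 142 without F344 NMU 30 d replicate 2, 186 without replicate 1, 1114 without Cop NMU 30 d replicate 1 and 176 with only the arrays of these groups modelled. Within Cop, 6 of 19 basal genes were called higher and 0 lower at 30 d (median 0.03). The Cop basal scores were 0.31, 0.27 and -0.29 at 30 d, against 0.18, 0.00 and -0.03 at 6 h and -0.33, -0.26 and -0.06 at 1 d. By the strain difference, basal genes were among those higher in F344, with 5 of 19 called (median 0.40): Krt5, Krt14, Krt17, Tp63 and Lamb3. The count was 3 without any of 8 arrays in turn (F344 6 h replicate 1 or 3, any F344 30 d array, Cop 6 h replicate 1, Cop 1 d replicate 2 or Cop 30 d replicate 3), and 1 with only these groups modelled. The markers of other epithelial cells on the same arrays were as follows, and their part in this result was not tested. Of 10 keratinocyte genes 3, Krt5, Krt14 and Krt15, were higher in F344 (median 0.13), or 0 with only these groups modelled. Of 24 luminal genes 0 were called by limma (median 1.04), with 21 at an unadjusted p under 0.05 and 14 called higher without Cop 30 d replicate 1. The luminal scores at 30 d were 0.16, 0.19 and 0.33 in F344, against 0.44, 0.07 and -1.14 in Cop. Krt5 read 9.99, 10.04 and 9.93 at 30 d in F344, against 9.08, 9.39 and 7.29 in Cop. The value of Cop replicate 3 stood far below the other 2. Its time difference was 1.54 in F344 and -0.64 in Cop, and they differed by 2.18 (SE 0.452, adjusted p = 0.00952). Krt15 differed by 2.60, but not without Cop 30 d replicate 3 or F344 30 d replicate 2 (adjusted p between 0.00124 and 0.063). Krt5 and Krt15 missed the threshold when only the arrays of these groups were modelled. Igfbp2, a binding protein for insulin-like growth factors, was 1.41 in F344 and -0.62 in Cop (2.03, SE 0.383, adjusted p = 0.00488), and the retinol carrier receptor Stra6 0.89 and -1.34 (2.23, SE 0.383, adjusted p = 0.00196). The largest positive strain difference called was that of Prr27, a proline-rich secreted protein, with 3.0. Its time difference was 0.85 in F344, where it did not pass, and -2.16 in Cop.

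Genes for making and storing fat also differed between the strains. Of 26 fatty acid and sterol genes, 6 were lower in F344 (median -0.36) and 0 higher, and of 26 lipid storage genes 6 were lower (median -0.62) and 0 higher. The first count was 3 without F344 30 d replicate 2, and 2 with only these groups modelled. The second was 1 without F344 30 d replicate 2, 2 without Cop 30 d replicate 2, 3 without F344 6 h replicate 3, F344 30 d replicate 1 or Cop 6 h replicate 1, and 10 without Cop 30 d replicate 1. Acaca read 9.67, 9.29 and 10.20 at 30 d in F344, against 9.75, 9.56 and 8.92 in Cop. At 6 h it read 11.78, 11.66 and 11.33 in F344, against 8.79, 8.75 and 8.66 in Cop, so the strains lay apart at the earlier time. Its time difference was -1.90 in F344 and 0.07 in Cop (-1.97, SE 0.25, adjusted p = 4.94e-05). It was called under every alternative, as were Tm6sf2 (-2.19), a regulator of liver fat export, and C5h8orf88 (-4.09). C5h8orf88 was low in Cop throughout, at 3.76, 4.03 and 3.22 at 30 d, 3.66, 3.74 and 3.98 at 6 h and 3.52, 3.58 and 3.30 at 1 d. These values lie below the array medians of 5.66 to 5.77, so a fall within Cop could hardly be measured. Its strain difference therefore mostly restates the fall in F344. Of the 31 oxidative phosphorylation genes, 29 fell and 0 rose in F344 (median -0.65), against 21 and 1 in Cop (median -0.36). The difference between the strains had a median of -0.27, and 17 of the 31 had an unadjusted p under 0.05 by limma. It passed for 1 of the 31, or 6 without Cop 30 d replicate 1. Ndufb3 was that gene, chosen after its value was seen, at -0.81 in F344 and -0.06 in Cop.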

How the data were processed

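The deposited values are log2 expression values of 36 Affymetrix rat arrays, 3 in each of 12 groups, per the file headers and the values themselves. Per the submitters' processing notes GCOS was used; no source used here states how they were summarized and normalized. Array medians lay between 5.66 and 5.77. Groups come from the titles. Probe sets were tested if they exceeded the 40th percentile of their array on at least 3 arrays, which kept 20748 and left out 10294. One mean per group was fitted with limma 3.58.1 in R 4.3.3 (eBayes with trend and robust options, 24 residual degrees of freedom), with two-sided tests and Benjamini-Hochberg adjustment over all probe sets tested. A gene stands for its named probe set of highest mean. Of 31099 probe sets 20832 carry 1 symbol, 436 several and 9831 none. In data simulated for the comparison of 30 d with both earlier times, over 20748 probe sets, 93% of 100 changes of 1 and 100% of 100 changes of 2 (log2) were recovered, with 10 false calls. The simulated arrays had independent normal noise for each probe set and no other differences between groups. Variation shared by many genes, as between these glands, was not simulated, so the rates need not hold for them.

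Named genes are the 12 called genes of largest rise and of largest fall without overlap of arrays, the members of smallest p (at most 4) of lists with at least 3 calls, the 5 of largest difference in each direction between treatments and between strains, and 13 early responder, division and receptor genes. Further list members were picked as examples by their role, with their values known. The comparison and the gene lists were chosen with earlier results of these data known. Replicate numbers were checked for pairing: deviations of same-numbered arrays from their group means correlated between -0.518 and 0.507 over 9 pairs of groups, such as 0.126, -0.0926 and -0.249 (F344 NMU, 30 d and 6 h), -0.0137, 0.35 and 0.507 (NMU and control, 6 h) and 0.402, 0.289 and -0.0287 (F344 and Cop, 1 d). No pair of groups had all 3 over 0.1, so the numbers were not taken to pair the arrays. Within groups, F344 control 1 d replicates 1 and 2 were the most alike. Their root mean square difference over probe sets was 0.163 (log2), against 0.232 to 0.645 for all other pairs. The labels do not say whether these 2 are separate animals, and the model treats them as independent. Alternatives changed the normalization, the filter, a floor, the eBayes options, the arrays modelled and the replicates left out, or added a cell type score or a replicate block. Promoter windows of 300 bases come from RefSeq.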

Additional observations from a re-analysis of the deposited data

Results flagged for a closer look

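The test of the time difference after NMU against that after saline called 831 probe sets in F344 glands. It called 9 with the skeletal muscle score in the model, and 65 without the saline arrays at 30 d with high division scores, replicates 1 and 3. The muscle scores at 30 d were 1.23, 0.85 and -0.41 in NMU glands, against -3.32, -0.53 and -2.58 in saline glands. Since the score differs between the groups compared, a call lost with it in the model cannot be assigned to muscle content or to treatment. The named genes of largest negative difference, lower at 30 d against earlier after NMU than after saline, were Slc34a2 (-3.14), the water channel Aqp3 (-3.07), Cxcl11 (-2.87), the carbonic anhydrase Car2 (-2.80) and Cldn7 (-2.67). The largest positive ones were Ttn (5.08), Sfrp4 (1.76), the protease Pappa2 (1.57), the potassium channel Kcnma1 (1.48) and Calml4 (1.46). Aqp3 averaged 5.50 ± 0.495 in NMU glands at 30 d and 7.83 ± 0.508 in saline glands (SD, n = 3 each), and its call was lost without 11 of the 18 arrays in turn. The calls of Pappa2, Car2, Kcnma1 and Calml4 were lost without 13, 9, 8 and 3 of them. Of these 10 genes Cxcl11 alone kept its call with the muscle score in the model, and Cxcl11 and Sfrp4 kept theirs without the 2 saline arrays.

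The same test between the strains, F344 against Cop after NMU, called 331 probe sets. The genes lower in F344 by it were C5h8orf88 (-4.09), Tm6sf2 (-2.19), Lrrc39 (-2.16), a gene best known from muscle, Acaca (-1.97) and the signalling regulator Rgs7 (-1.92). C5h8orf88 lay below the array medians on all Cop NMU arrays, where a fall could hardly be measured. Those higher in F344 were Prr27 (3.0), Krt15 (2.60), Stra6 (2.23), Krt5 (2.18) and Igfbp2 (2.03). Of these 10, the calls of C5h8orf88, Tm6sf2, Acaca, Rgs7, Prr27 and Stra6 held under every alternative and without each array in turn. Those of Lrrc39, Krt5, Krt15 and Igfbp2 were lost with only the arrays of these groups modelled, and that of Krt15 also without F344 NMU 30 d replicate 2 or Cop NMU 30 d replicate 3.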

How the results depend on the processing

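Of the 143 named genes called at 30 d against both earlier times, 110 were called whichever of the 9 arrays was left out and 103 under every alternative as well. None of these calls changed direction. Over all comparisons 4678 values of named genes were recomputed, called or not, and among those not called 19 changed sign. With one array left out in turn, the 6701 probe sets called against both earlier times ranged between 4034 and 6411, the 6580 against 6 h between 4240 and 6569, and the 4032 against 1 d between 2370 and 4198. In the same way the 831 of NMU against saline ranged between 210 and 1254 and the 331 of F344 against Cop between 142 and 1114, the lowest without F344 NMU 30 d replicate 1 in the first and replicate 2 in the second. Modelling only the arrays of the groups compared gave 176 for the strains. For NMU against saline, the skeletal muscle score as a covariate gave 9, among them Cxcl11 (-2.74) and Gzmb (-1.62), and leaving out the 2 saline arrays at 30 d with high division scores, an alternative chosen after seeing the data like the leaving out of control and Cop arrays, gave 65; the cause was not tested. The replicate block gave 6593, 6476, 3928, 735 and 313 in the same order of comparisons, within 1.5 times of each count, and the numbers do not pair the arrays. Quantile normalization raised the share of higher calls to 47.8%, against 38.1% as deposited, and to 38.8%, against 21.5%, for NMU against saline. Signal at background limits dim genes: 10294 probe sets were not tested. With 3 arrays per group, small differences can go uncalled.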
